A study of Mus musculus with 4 samples.

Results

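The cells described here are the macrophages of joint-draining vessels in the mouse hind leg that carried transcripts of C1q together with Lyve1, Cd209f or Cd209d. They were chosen by 3 limits on their unique molecular identifiers (UMIs, each of which marks 1 captured mRNA molecule). A member held fewer than 20 UMIs of Dcn per 10000 UMIs, at least 10 UMIs of C1qa, C1qb and C1qc together, and at least 5 UMIs of Lyve1, Cd209f and Cd209d together. Dcn encodes decorin, an abundant product of fibroblasts, so that its limit set stromal cells aside. Of the 8879 cells sequenced from wild-type mice (WT) and from mice with a tumor necrosis factor transgene (TNF-Tg), 1553 passed all 3 limits, namely 1289 among 5488 from WT and 264 among 3391 from TNF-Tg. The series held 10837 cells in its 4 libraries.

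The vessels were the popliteal lymphatic vessels (PLVs), which drain lymph from the ankle, and the superficial saphenous vein (SSV) between them. Each library pooled the vessels of 3 mice on a C57BL/6J background, after Evans blue dye had been given into the hind paw and the vessels had been digested with Accumax. The WT and TNF-Tg mice were male and 9 months old by their labels, and the TNF-Tg mice carry a human TNF transgene and had chronic inflammatory-erosive arthritis. Females of this line die early and were not used. Live cells of both groups were sorted for high forward or side scatter alone, a gate meant for smooth muscle cells, so that the share of macrophages within a library also depended on that gate. The other libraries, tdT1 and tdT2, came from male and female Cspg4-Cre;Ai9-tdTomato mice more than 8 months old, in which the promoter of Cspg4, active in mural and muscle cells, drives the Cre that switches on the red reporter. They were sorted for red fluorescence, carried no TNF transgene, and enter below only as further levels. There was 1 library per condition, so that condition, pool of mice and library cannot be told apart, no p-value was computed between WT and TNF-Tg, and every interval given is at 95% and covers counting error only.

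Macrophages of vessel walls and loose connective tissue clear debris, take up iron and hyaluronan, and present antigen. C1q, the recognition molecule of the classical complement pathway, is made largely by such cells from its A, B and C chains. Lyve1 encodes a receptor for hyaluronan that is known from lymphatic endothelium and from macrophages that lie along vessels. The Cd209 genes encode relatives of the human lectin DC-SIGN, which bind sugars on pathogens and on other cells. Macrophages that carry Lyve1, Mrc1, Cd163 and Folr2 are usually described as long-lived residents of tissue, whereas Ccr2 and Ly6c2 mark cells that have lately come from blood monocytes.

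The WT library held 68773605 UMIs, the TNF-Tg library 37557627, tdT1 14256192 and tdT2 2357031. The members were sequenced about equally deeply in both conditions. Their median was 12743 UMIs in WT and 11157 in TNF-Tg, with 3402 and 3215.5 genes per cell and 1.73% and 1.69% mitochondrial UMIs. In sum the members gave 16585775 UMIs in WT and 3240792 in TNF-Tg, so that TNF-Tg levels carry the wider counting error. The members of tdT1 (11 cells) and tdT2 (39 cells) were shallower, with medians of 4501 and 3699 UMIs. No member shared its barcode with a member of another library, and WT and TNF-Tg had 2 barcodes in common, neither of them a member. Scrublet, a doublet caller, marked 18 WT and 8 TNF-Tg members, against 137 and 74 cells in the whole libraries.

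The genes that chose the cells were found far above the limits in most of them. A WT member held a median of 42 UMIs of Lyve1, Cd209f and Cd209d together, with 10% of the cells under 11 and 10% over 101, and a TNF-Tg member held 34, with 10 and 77.7 as the same bounds. C1qa, C1qb and C1qc together gave a median of 199 UMIs per WT member and 112 per TNF-Tg member. All 3 of Lyve1, Cd209f and Cd209d were present in 1008 WT members (78.2%) and 222 TNF-Tg members (84.1%). In WT and TNF-Tg members respectively, Lyve1 was seen in 94.3% and 97.0%, Cd209f in 86.2% and 89.8% and Cd209d in 90.5% and 93.6%. In stromal cells, which should lack it, a Lyve1 UMI was present in 1.90% of those of WT and 0.358% in TNF-Tg, at median depths of 15025 and 11993 UMIs. The plot of Lyve1, Cd209f and Cd209d UMIs over cells with C1q shows where the limit falls.

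**Figure D1:**
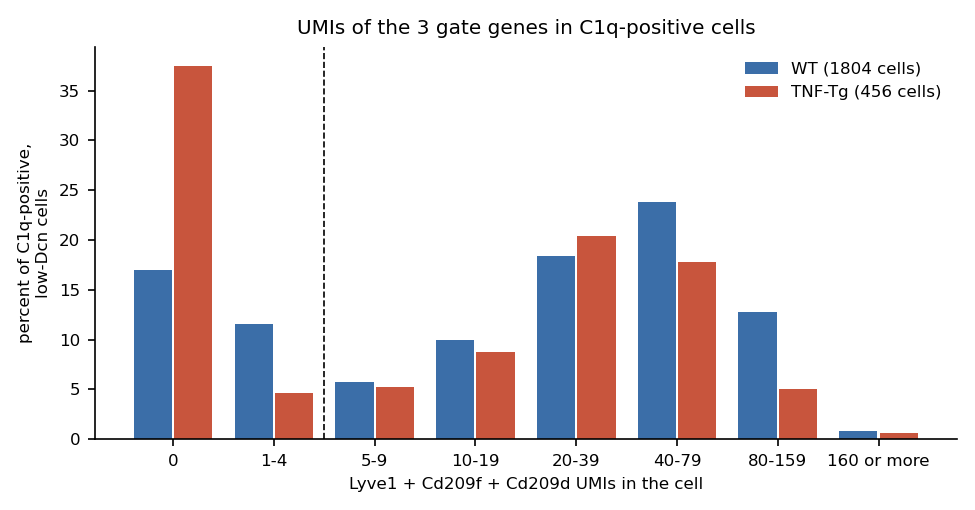
Cells with low Dcn and at least 10 C1q UMIs, by their UMIs of Lyve1, Cd209f and Cd209d together (x axis, in steps of growing width) and by the percent of such cells in each library (y axis); the dashed line is the limit of 5 UMIs. Because the steps widen, bar heights on the right are not counts per UMI, and the range from 0 upwards has no gap, with 27 WT cells at 4 UMIs and 27 at 5.

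The limit cut a continuous range. In WT, 307 cells held 0 of these UMIs, 208 cells 1 to 4 and 104 cells 5 to 9. Of these, 27 cells held 4 UMIs and fell outside, and 27 cells held 5 and fell inside. Levels summed over such cells, in UMIs per 1000000 UMIs of the cells (CPM), were 1115 and 1094 CPM for the haptoglobin-haemoglobin receptor Cd163, 2294 and 2057 CPM for the mannose receptor Mrc1, and 471 and 258 CPM for the chemokine receptor Ccr2, outside and inside the limit. From 0 to 5 UMIs Ccr2 was lower at each step, with 1351, 1209, 805, 555, 471 and 258 CPM, and the 23 cells with 6 UMIs were at 697 CPM. Fn1 (fibronectin) was at 1472 CPM with 0 UMIs, 25.5 CPM with 4 and 403 CPM with 6. In TNF-Tg, 1 cell held 4 UMIs and 8 cells held 5, too few for levels to be compared.

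The name given to these cells, Lyve1 and Cd209f resident macrophages, was set against markers that the limits did not use. Of 14 general macrophage genes, all had UMIs in the members of both libraries, and Lyz2 (lysozyme 2) was the most abundant, with 8532 CPM in WT against 3638 CPM in TNF-Tg. Of 29 genes described for resident macrophages, all again had UMIs, some of them few. Their summed level was 54946 CPM in WT members and 39244 CPM in TNF-Tg members, against 14774 and 9124 CPM in the same comparison cells. Mrc1 stood at 2652 and 3345 CPM, Cd163 at 1710 and 1556 CPM, the folate receptor gene Folr2 at 1277 and 768 CPM, and Pf4 at 6356 and 10951 CPM in WT and TNF-Tg. Timd4, a phosphatidylserine receptor of some resident populations, was low, with 36.7 and 52.1 CPM, but stood at 0.25 and 0.373 CPM in the C1q-positive comparison cells. The iron exporter gene Slc40a1 stood at 10.7 and 17.9 CPM, and Marco, a scavenger receptor of marginal zone and lung macrophages, was near 0 with 0.603 and 6.48 CPM.

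Markers of other cells were mostly low. The 10 endothelial markers summed to 2.29 CPM in WT against 17.3 CPM in TNF-Tg, with 4 and 6 of them at 0, which included the lymphatic genes Flt4, Mmrn1 and Reln in both libraries. The 10 stromal markers summed to 216 and 196 CPM, most of it Gsn (131 and 124 CPM), against 40105 and 29684 CPM in stromal cells themselves. The 10 markers of recruited monocytes summed to 246 and 280 CPM, against 3099 and 3022 CPM in the C1q-positive cells without Lyve1 and Cd209 UMIs. These sums hold Ccr2, Plac8 and Fn1, which were slightly lower in TNF-Tg, and genes that were higher there at low levels. Among the latter were Hp (haptoglobin), with 3.2 CPM in WT against 40.1 CPM in TNF-Tg, Chil3, with 0.543 against 19.4 CPM, and Ly6c2, with 1.57 against 15.1 CPM. All 3 were under the level needed for a test, and the part of free RNA or of monocytes, which numbered 547 in the TNF-Tg library, was not tested. Markers of T cells summed to 2.23 and 0.617 CPM, and those of B cells to 10.3 and 7.41 CPM. The 9 neutrophil markers summed to 606 and 1294 CPM. Of these Mmp9, a matrix protease, gave 250 and 381 CPM and was seen in 73.6% and 82.2% of members, whereas of the UMIs of the neutrophil genes S100a8 and S100a9 92.5% lay in 9 WT members and 97.6% in 3 TNF-Tg members. Dendritic cell markers summed to 318 and 281 CPM, of which Cd209a, a relative of the genes used for the choice, gave 304 and 262 CPM. Mast cell markers summed to 128 and 60.8 CPM, with Mcpt4 the most abundant, and a UMI of Cpa3, Mcpt4, Cma1 or Tpsb2 was present in 765 of 1289 members in WT and 100 of 264 in TNF-Tg. Of the haemoglobin UMIs in WT members, 96.3% lay in 1 cell.

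The gated macrophages made up a smaller share of the TNF-Tg library. In WT they were 23.5% of the cells (exact Clopper-Pearson interval 22.4% to 24.6%), in TNF-Tg 7.79% (6.91% to 8.74%). They were 11 of 1504 tdT1 cells (0.731%) and 39 of 454 tdT2 cells (8.59%). The WT share was 3.02 times the TNF-Tg share, a log2 ratio of −1.59 with an interval of −1.79 to −1.40. In the same libraries inflammatory monocytes, taken as cells with low Dcn, at least 2 Ly6c2 UMIs and a Ccr2 UMI, numbered 69 in WT and 547 in TNF-Tg, and the shares of 1 library depend on each other. The members were 71.5% (69.3% to 73.5%) of the 1804 C1q-positive cells with low Dcn in WT and 57.9% (53.2% to 62.5%) of the 456 such cells in TNF-Tg. On that base, chosen after the values had been seen, the log2 ratio was −0.30, with an interval of −0.50 to −0.11. Whether fewer of these cells were present in the TNF-Tg vessels, fewer were released by digestion or fewer passed the scatter gate cannot be told apart.

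The identity of the members was described against the C1q-positive cells with low Dcn that held no UMI of Lyve1, Cd209f or Cd209d, of which there were 307 in WT and 171 in TNF-Tg. Since the gate chose both sets by their transcripts, the differences are a description and were not tested. Cd209g and Cd209b came first. Cd209g stood at 678 CPM in WT members and 2.25 CPM in the comparison cells, a log2 ratio of 8.23, and in TNF-Tg at 570.2 CPM against 2 UMIs in all comparison cells. Cd209b, known from marginal zone macrophages of the spleen, stood at 382 against 1.5 CPM in WT, and in TNF-Tg at 249 CPM against 1 UMI. Further down, Cd209a, better known from dendritic cells, stood at 304 against 28.8 CPM and 262 against 8.95 CPM.

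Several secreted products and surface proteins were also among the highest. Cxcl13, the chemokine that attracts B cells, had 878 CPM in WT members against 3.5 CPM in the comparison cells, and 398 CPM against 0 UMIs in TNF-Tg. Pla2g2d, a secreted phospholipase, had a log2 ratio of 5.87 in WT, and 62.0 CPM against 1 UMI in TNF-Tg. C6, a component of the terminal complement complex, had a log2 ratio of 5.17 in WT, and Cd55, which limits complement at the cell surface, one of 5.11. In TNF-Tg the comparison cells held 0 UMIs of either, and with these set to the floor of 3 UMIs the log2 ratios were at least 6.67 and 8.30. For the matrix protease Mmp9 the log2 ratios were 4.18 and 5.47, for the ficolin gene Fcna 3.60 and 5.85, for the chemokine Ccl8 3.09 and 5.29, and for the metallothionein Mt2 3.05 and 4.05. Several of these genes were also found in other cells. Stromal cells of WT carried 508 CPM of Cxcl13 and 217 CPM of Cd55. Neutrophils carried 1005 and 1116 CPM of Mmp9 in WT and TNF-Tg, more than the 250 and 381 CPM of the members, and stromal cells 539 and 2678 CPM of Mt2, against 278 and 494 CPM in the members. The plot of log2 ratios over the comparison cells shows these genes well above 0 in both libraries.

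**Figure D2:**
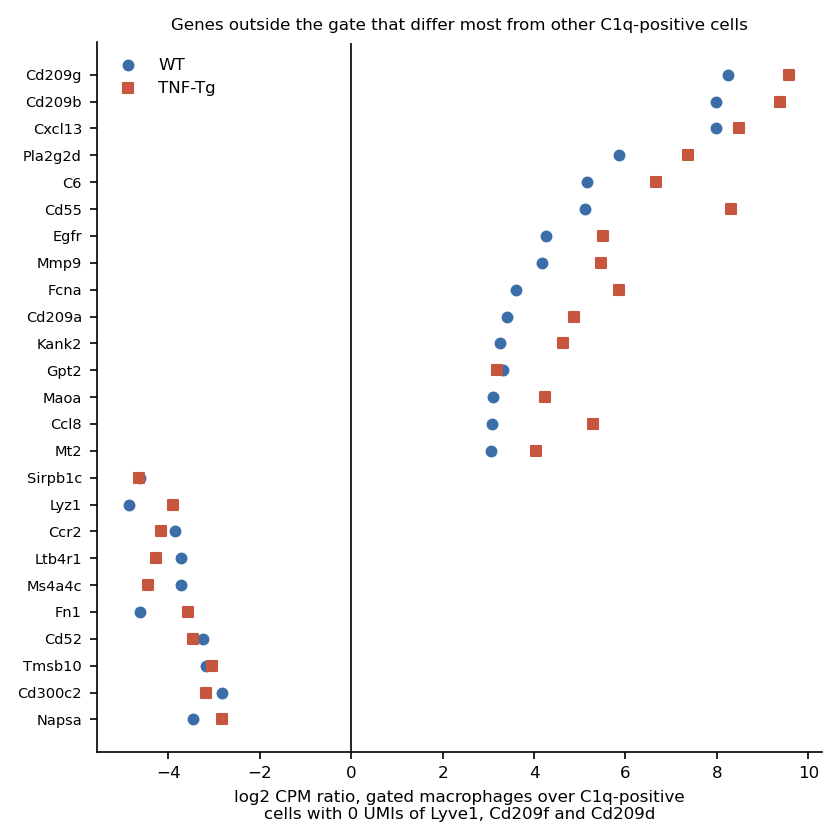
Each row is a gene that did not choose the cells, placed by its log2 CPM ratio of gated macrophages over C1q-positive cells with 0 UMIs of Lyve1, Cd209f and Cd209d (x axis), with circles for WT and squares for TNF-Tg; the upper 15 and lower 10 genes were chosen as the highest and lowest in both libraries, which fixes their side of 0. Cd209g and Cd209b lie at the far right and Ccr2, at 93.1 CPM in WT members against 1351 CPM in the comparison cells, among those on the left.

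At the other end were genes that the comparison cells carried more of. Ccr2, the receptor through which monocytes leave blood, stood at 93.1 CPM in WT members against 1351 CPM in the comparison cells, and at 79.0 against 1415 CPM in TNF-Tg. Fn1 had log2 ratios of −4.63 and −3.57, Lyz1 −4.85 and −3.91, the leukotriene receptor gene Ltb4r1 −3.73 and −4.27, and Cd52 −3.24 and −3.45. Of these Fn1 was highest in stroma (5738 CPM in WT) and Cd52 in neutrophils (4356 CPM). H2-Aa, a chain of MHC class II, was also lower in the members, with 3022 against 8314 CPM in WT and 1082 against 1698 CPM in TNF-Tg. Thinned to 3000 UMIs per cell, Ccr2 was seen in 9.16% of WT members and 78.1% of the comparison cells, and in 7.48% and 91.6% in TNF-Tg.

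The 7 genes of the Cd209 family in the mouse lie near each other on chromosome 8, and Cd209f and Cd209g are on opposite strands there, from 4102787 to 4105835 and from 4134098 to 4137707 in build GRCm38. Their counts went together from cell to cell. Over members thinned to 5000 UMIs (1212 WT and 235 TNF-Tg cells), the Spearman correlation of Cd209f with Cd209g was 0.70 in WT and 0.71 in TNF-Tg. As Cd209f also chose the cells, and the points are cells of 1 library each, these values are descriptions. Shared reads could also link genes of 1 family, and the reads themselves were not examined. A 3′ library is read near the end of a transcript. The last 400 bases of the longest coding transcript of Cd209f and of Cd209g each held 370 stretches of 31 bases, and 0 of them were shared. The 2 genes had a different stretch in common, in the RefSeq promoter windows of GRCm38.p6 (250 bases before a start). An identical run of 154 bases lies in both windows and in no other of 32851. The stretch of Cd209g falls within the span given above, because a GENCODE transcript of that gene with a retained intron begins upstream of it. The 83 bases of the run that lie before the exons of coding GENCODE transcripts are shown with a TGAGTCA, the letters bound by AP-1 factors such as Fos and Jun, in capitals.
Cd209f, chr8:4105836-4105918, minus strand: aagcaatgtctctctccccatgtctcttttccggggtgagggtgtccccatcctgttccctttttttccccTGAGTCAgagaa
Cd209g, chr8:4134568-4134650, plus strand: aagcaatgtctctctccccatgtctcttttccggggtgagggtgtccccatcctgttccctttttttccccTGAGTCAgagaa
TGAGTCA or its reverse complement TGACTCA is present in 4.46% of all these promoters, so the match is a description and not a site. Fos itself stood at 2276 CPM in WT members and 1771 CPM in TNF-Tg members. Whether shared reads, the run or Fos have a part in the correlation of Cd209f with Cd209g was not tested.

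The members differed among themselves in both libraries, and in some genes widely. Retnla, a secreted product of alternatively activated macrophages, ranged from 0 per 10000 UMIs in the lowest 10% of WT members to 156 in the highest 10%, with a median of 5.88. In TNF-Tg its median was 1.35 and the same upper bound 125, and a Retnla UMI was present in 75.3% of WT and 56.8% of TNF-Tg members. The 4 main MHC class II genes together (H2-Aa, H2-Ab1, H2-Eb1 and Cd74) ranged from 20.6 to 358 per 10000 UMIs in WT and from 4.24 to 200.3 in TNF-Tg, with the lowest and highest 10% of cells left out. Cxcl13 had no UMI in most members, with a UMI in 45.8% of WT and 38.3% of TNF-Tg members. Of the measures compared, Lyve1, which also chose the cells, went most with the chemokine Ccl6 (Spearman correlation 0.35 in both).

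TNF-Tg members were next compared with WT members over all 3245 genes that reached 50 CPM in either. A gene was called when its level differed at least 2-fold and the counting interval of its ratio did not include equal levels. By that rule 131 genes (4.04%) were higher and 97 genes (2.99%) lower in TNF-Tg, and these shares are the background for the groups below. The median log2 ratio of the 2594 genes with 50 CPM in both was 0.11, and the ratios of single genes are to be read against it. With the ratios centred on that median, 83 genes were higher and 130 lower, so that the share of higher genes among the calls went from 57.5% to 39.0%. The middle 90% of genes lay between −0.80 and 0.95. The plot of TNF-Tg against WT levels shows the abundant genes that left this band.

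**Figure D3:**
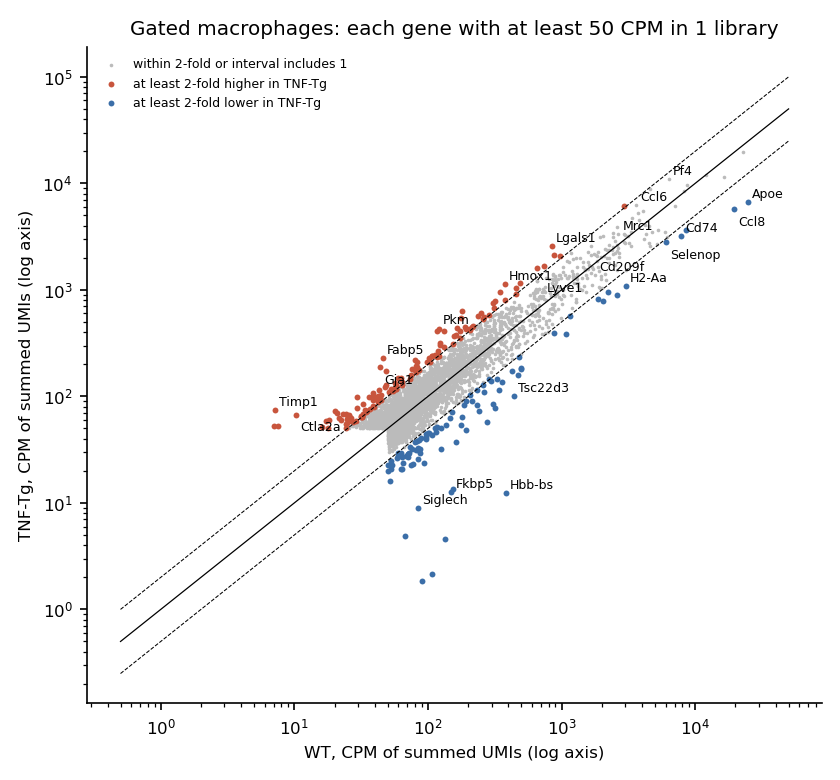
Each point is a gene, placed by its level in the gated macrophages of WT (x axis, CPM, log scale) and TNF-Tg (y axis, CPM, log scale), with called genes in colour, a solid line at equal levels and dashed lines at 2-fold. Apoe (24631 against 6674 CPM) and Ccl8 (19665 against 5683 CPM) lie below the band at the abundant end, and Lgals1 (841 against 2558 CPM) above it.

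The largest drops in CPM among the lower genes were those of Apoe and Ccl8. Apoe, on chromosome 7, encodes apolipoprotein E, the lipid carrier that macrophages secrete. It stood at 24631 CPM (24556 to 24707) in WT against 6674 CPM (6585 to 6763) in TNF-Tg, and at 13002 CPM in tdT1 and 11145 CPM in tdT2. WT was thus the highest library and TNF-Tg the lowest, a log2 ratio of −1.88 (−1.90 to −1.86), with both tdT libraries in between. Per cell the median was 232 Apoe UMIs per 10000 in WT and 58.5 in TNF-Tg, and 206 of 264 TNF-Tg members (78.0%) fell under the 10th percentile of WT members.

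Ccl8, a chemokine for monocytes and T cells, stood at 19665 CPM in WT, 5683 CPM in TNF-Tg, 6287 CPM in tdT1 and 5471 CPM in tdT2. Its log2 ratio was −1.79 (−1.81 to −1.77), but here WT alone was high and the tdT libraries, which carry no TNF transgene, lay near TNF-Tg. Other products of the members were lower as well. Selenop, which encodes the selenium carrier selenoprotein P, stood at 6010.1 CPM in WT, 2810 CPM in TNF-Tg, 7502 CPM in tdT1 and 6586 CPM in tdT2, so that TNF-Tg was the lowest by far. Its log2 ratio was −1.10, and 64.8% of TNF-Tg members fell under the 10th percentile of WT.

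All 6 MHC class II genes that could be tested of the 10 listed were lower in TNF-Tg, against a background of 2.99%. H2-Aa, the α chain of I-A, stood at 3022 CPM in WT, 1082 CPM in TNF-Tg, 4587 CPM in tdT1 and 4374 CPM in tdT2. H2-Ab1, its β chain, stood at 2598, 903, 2860.1 and 3022 CPM in the same order. Cd74, the invariant chain that guards the peptide groove, stood at 7815, 3183, 7820.3 and 11056 CPM. In each of these genes TNF-Tg was the lowest of the 4 libraries. Their log2 ratios over WT were −1.48, −1.52 and −1.30, and those of H2-Eb1, H2-DMa and H2-DMb1 were −1.22, −1.48 and −1.09. Ciita, the master regulator of the class, was under the level needed for a test, with 36.1 CPM in WT against 16.4 CPM in TNF-Tg. Summed, the 10 genes gave 16071 CPM in WT against 6289 CPM in TNF-Tg, with Cd74 the most abundant. For the sum of H2-Aa, H2-Ab1, H2-Eb1 and Cd74, 38.3% of TNF-Tg members lay under the 10th percentile of WT.

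The class II genes are known to be driven as a group from a promoter module that includes a Y box, an inverted CCAAT. Of the 10 listed, 7 had an entry in the RefSeq promoter table, and in 6 of these the letters TGATTGG, or the reverse complement CCAATCA, were present, against 7.23% of all 32851 promoters. The stretches around it in front of 2 of the genes that were lower in TNF-Tg, both on chromosome 17, are given with these letters in capitals.
H2-Aa, chr17:34287834-34287933, minus strand: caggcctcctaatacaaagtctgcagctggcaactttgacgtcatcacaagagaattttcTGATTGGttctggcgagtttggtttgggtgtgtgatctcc
H2-Eb1, chr17:34305746-34305845, plus strand: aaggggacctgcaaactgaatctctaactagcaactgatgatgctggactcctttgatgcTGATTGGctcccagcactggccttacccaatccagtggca
The genes that hold the letters include H2-Oa and H2-Ob, which were at 0.844 and 2.59 CPM in WT members. The letters were thus also present before genes at low levels, and whether they go with the level was not tested.

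Genes known to be induced by glucocorticoids were lower in 4 of 10 tested. Fkbp5, a co-chaperone of the glucocorticoid receptor, stood at 149 CPM in WT, 12.7 CPM in TNF-Tg, 41.5 CPM in tdT1 and 25.5 CPM in tdT2, a log2 ratio of −3.56 (−4.04 to −3.11). Klf9, a transcription factor, stood at 155, 13.6, 359 and 19.1 CPM, a log2 ratio of −3.51. Tsc22d3, which encodes the anti-inflammatory protein GILZ, stood at 442, 100.3, 497 and 319 CPM, a log2 ratio of −2.14. TNF-Tg was the lowest library in all 3, but in Fkbp5 and Klf9 tdT2 was close to it, on only 4 and 3 UMIs. The clock gene Per1 was the other one called, at −1.64. Mt1 and Mt2, metallothioneins that respond to the same hormone and to metals, had log2 ratios of 0.37 and 0.83 and were not called, and the median over the 10 genes was −0.67. The difference was shared by other cells, since Fkbp5 had a log2 ratio of −4.18 in the C1q-positive comparison cells and −1.36 in stroma. Each library was prepared on its own day and the hour of harvest is not given in the sources used here, so that day, hour and condition cannot be told apart.

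Of the resident markers 27 of 29 were tested, none was higher and 4 were lower. Beside Ccl8 and Selenop these were Clec10a, a lectin for galactose sugars, with 1864 CPM in WT against 828.5 CPM in TNF-Tg, and Vsig4, a complement receptor, with 70.5 and 26.8 CPM. The remaining 23 stayed within 2-fold, and Mrc1 (log2 ratio 0.33), Stab1 (0.49), Cbr2 (0.50) and Pf4 (0.78) lay on the positive side. The C1q genes together, and Lyve1, Cd209f and Cd209d together, had minimum counts in every member of both libraries. Their ratios are thus given without a reading. C1qa was at −0.78, C1qb at −0.55, C1qc at −0.46, Cd209f at −0.35, Cd209d at −0.51 and Lyve1 at 0.29. Of 13 general macrophage genes tested, 4 were lower, namely Mertk, a receptor for dying cells, at −1.17, Lyz2 at −1.23, Trem2, a lipid receptor, at −1.44 and Mpeg1, a pore-forming protein of lysosomes, at −1.73. Csf1r, the receptor for the macrophage growth factor CSF1, was at −0.75, with 1279 CPM in WT against 763 CPM in TNF-Tg. The 6 Cd209 genes tested, of which Cd209f and Cd209d also chose the cells, were negative and within 2-fold, with a median of −0.30.

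Complement and interferon genes gave further losses. Of 8 complement genes tested none was higher and 2 were lower, C4b, a component of the classical pathway, with 1083 CPM in WT against 389 CPM in TNF-Tg, and Cfb, a protease of the alternative pathway, with 305 and 85.2 CPM. The complement gene C6, which was outside that list, was at 342 and 114 CPM, a log2 ratio of −1.58. Of 8 interferon-responsive genes tested, Irf7 (−1.43) and Oasl2 (−1.14) were lower and none was higher, while Ifi27l2a, the most abundant of them, stood at 3703 and 5245 CPM, a log2 ratio of 0.50. Of 7 Toll-like receptor genes and partners tested, Tlr7 and Tlr8, which sense RNA in endosomes, were lower at −1.11 and −1.09, and Tlr2 and Tlr4 were at −0.11 and 0.01. Siglech, a lectin best known from plasmacytoid dendritic cells, stood at 84.3 CPM in WT, 8.95 CPM in TNF-Tg, 96.7 CPM in tdT1 and 230 CPM in tdT2. All 4 histone genes that could be tested were lower, with a median of −1.85 (Hist1h1c −1.99, Hist1h2bc −1.99). That group was put together after the values had been seen.

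Chemokines moved in both directions. Of 24 listed, 11 were tested, 1 was higher and 2 were lower, with a median of 0.62. Cxcl2, an attractant for neutrophils, stood at 153 CPM in WT against 312 CPM in TNF-Tg, a log2 ratio of 1.03. Centred on the median gene (0.11), Cxcl2 fell short of 2-fold, and no chemokine was then called higher. Cxcl13 was lower along with Ccl8, at 878 and 398 CPM, but its ratio of −1.14 became −0.89 when each cell was given the same weight. Ccl2, Ccl7, Ccl6 and Pf4 lay between 0.68 and 0.87 and were not called. Pf4, which encodes platelet factor 4, was the 11th most abundant transcript in WT and the 4th in TNF-Tg, where Apoe was the 8th, with a median per cell of 59.99 per 10000 UMIs in WT and 97.9 in TNF-Tg, and 45.5% of TNF-Tg members lay over the 90th percentile of WT.

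Of the genes of the TNF and NF-κB response, 11 of 24 could be tested, 1 was higher and none lower, with a median of −0.19. The higher one was Sod2, a mitochondrial superoxide dismutase, with 80.4 CPM in WT, 218 CPM in TNF-Tg, 69.1 CPM in tdT1 and 57.4 CPM in tdT2. TNF-Tg was the highest of the 4. Nfkbia, the inhibitor of NF-κB, stood at 222 and 195 CPM, and the receptor gene Tnfrsf1a at 194 and 202 CPM. The mouse gene Tnf was near 0, with 3.56 and 6.48 CPM, and Il1b stood at 9.83 and 38.6 CPM, both under the level needed for a test. None of 13 immediate early and heat shock genes, which rise while tissue is being dissociated, was called between WT and TNF-Tg (median −0.36). All 19 genes of that list summed to 9133 CPM in WT, 7433 CPM in TNF-Tg, 49754 CPM in tdT1 and 16233 CPM in tdT2, so that the tdT libraries, and tdT1 above all, stood apart in them.

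Genes of glycolysis were among the higher ones, a group that was put together after the values had been seen. All 11 that could be tested had log2 ratios above the 0.11 of the median gene, with a median of 0.83, and 4 of them were called, against a background of 4.04%. Pkm, pyruvate kinase, stood at 121 CPM in WT, 434 CPM in TNF-Tg, 111 CPM in tdT1 and 108 CPM in tdT2. Pgk1, phosphoglycerate kinase, stood at 48.3, 171, 69.1 and 44.6 CPM. In both genes TNF-Tg was the highest and the other 3 libraries lay close together. Their log2 ratios were 1.84 and 1.83, and Gapdh and Eno1 were the other 2. For Pkm, 54.9% of TNF-Tg members lay over the 90th percentile of WT members.

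Several further groups were added in the same way. Of 38 proteasome genes, 34 were positive (median 0.71) and 3 were called, against a background of 4.04%. Of 39 genes of the mitochondrial ribosome, 38 were positive (median 0.54) and 5 were called, among them Mrps28 at 1.73 and Mrpl52 at 1.61. Signs are counted from 0, whereas the median log2 ratio over all tested genes was 0.12. The share of all tested genes with a positive ratio was not computed. The 80 genes of the cytosolic ribosome had a median of 0.10, close to that of all genes. Of these 3 were called, Rpl22l1, Rpl41 and Rps2. The highest ratio in this group was 1.09, so that none of the 3 stayed at 2-fold after centring on the median gene. Most single members of all these groups stayed within 2-fold, and differences between the groups were not tested.

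Some of the higher genes have known roles in stress, lipid and matrix. Lgals1, which encodes galectin 1, stood at 841 CPM in WT, 2558 CPM in TNF-Tg, 235 CPM in tdT1 and 536 CPM in tdT2. TNF-Tg was the highest, the log2 ratio was 1.60 (1.56 to 1.64), and 67.0% of TNF-Tg members lay over the 90th percentile of WT. Hmox1, haem oxygenase 1, stood at 375 CPM in WT, 1140.5 CPM in TNF-Tg, 622 CPM in tdT1 and 261 CPM in tdT2, again with TNF-Tg the highest. Of 11 genes of iron and haem tested, Hmox1 (1.60) and the transferrin receptor gene Tfrc (1.36) were higher and Cp, ceruloplasmin, was lower (231 against 115 CPM), while Fth1 and Ftl1, the ferritin chains, were at 0.05 and −0.21.

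Fabp5, a fatty acid carrier, stood at 45.9 CPM in WT, 229 CPM in TNF-Tg, 13.8 CPM in tdT1 and 19.1 CPM in tdT2. It was higher still in the C1q-positive comparison cells of TNF-Tg, with 817 CPM. Of 13 lipid and lysosome genes tested it was the only higher one, and Apoe and Trem2 were lower. Gja1 (connexin 43, log2 ratio 2.10), Enpp1 (a phosphodiesterase that makes pyrophosphate, 1.85), Nme1 (1.80), Odc1 (the first enzyme of polyamine synthesis, 1.77) and Plau (urokinase, 1.76) were also higher. Msr1, a scavenger receptor, was at 1.11, and the other 10 of 12 scavenger genes tested, leaving out Mertk, stayed within 2-fold. Centred on the median gene (0.11), Msr1 fell just short of 2-fold. Plau, Gja1 and Enpp1 were at 70.0, 189 and 73.1 CPM in TNF-Tg.

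Some high ratios belonged to genes that other cells of the library carried far more of, and the part of free RNA in them was not tested. For 124 of the 131 higher and 89 of the 97 lower genes, the level in members was at least 20% of that in the richest of the other classes compared. Timp1, an inhibitor of matrix proteases, missed that mark, with 7.11 CPM in WT members and 75.0 CPM in TNF-Tg members, against 58.3 and 563 CPM in stromal cells. Tmsb10 missed it as well, at 180 and 631 CPM in members against 6147 and 12976 CPM in inflammatory monocytes and 2873 and 6775 CPM in stroma. S100a8 had a log2 ratio of 1.64, and with the members rich in S100a8 and S100a9 or in haemoglobin left out, 0.28. The 4 haemoglobin genes had ratios from −5.64 to −4.85, which were all positive without those cells. Yae1d1 had a ratio of 1.70, and 0.21 with the richest member of each library left out, since 1 TNF-Tg member held 112 of its 169 UMIs there.

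The remaining lists gave few calls. Of 8 genes of alternative activation tested, Clec10a was lower and none was higher, and Retnla stood at 4487 CPM in WT, 2731 CPM in TNF-Tg, 7489 CPM in tdT1 and 13249 CPM in tdT2. The interleukin 4 receptor gene Il4ra was at 0.83. None of 5 Fc receptor genes and none of 6 Ms4a genes was called. Of 11 transcription factor genes, Cebpa was lower at −1.30, and Maf was at −0.43. Among 7 growth factor and matrix genes Timp1 was the 1 higher one, and Igf1 was at −0.44. Of 2 clock genes tested Per1 was lower. Neither of 2 proliferation genes was called, and Mki67, a marker of dividing cells, was near 0 with 10.6 and 2.47 CPM.

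The genes called in the members were also compared in the other classes, beside the share of all genes tested in each class that differed 2-fold there. Of the 131 higher genes, 110 could be compared in the C1q-positive cells without Lyve1 and Cd209 UMIs, where 54 were at least 2-fold higher and none 2-fold lower, and of the 97 lower genes 66 could be compared, of which 44 were 2-fold lower and none 2-fold higher. Of all 3030 genes tested in that class 6.47% were higher and 7.23% lower. In stromal cells 39 of 102 and 14 of 44 differed 2-fold in the same direction, with 3 and 3 in the opposite one, against 4.52% and 6.13% of 3033 genes. In inflammatory monocytes these were 9 of 98 and 17 of 54, with 1 and 4 opposite, against 2.55% and 2.9% of 2829 genes. In neutrophils they were 16 of 59 and 17 of 45, with 1 and 2 opposite, against 8.96% and 7.04% of 2343 genes. Apoe had a log2 ratio of −3.00 in the C1q-positive comparison cells and 0.95 in stroma. The MHC class II list summed to 44720.5 CPM in the WT and 9770.1 CPM in the TNF-Tg comparison cells. Whether any difference was larger in the members than in another class was not tested, since each class had 1 library per condition.

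The tdT libraries gave 2 more levels for each gene from mice without the TNF transgene, although their sort, depth and, for tdT1, sequencer and genes listed differed. To place each tdT level, levels under 3 UMIs were raised to 3 UMIs, which is 41.5 CPM in tdT1 and 19.1 CPM in tdT2. Genes with few UMIs could thus land nearer to TNF-Tg, as Enpp1 did in tdT1 with 1 UMI. Of the 131 higher genes, tdT2 lay nearer to WT than to TNF-Tg on the log2 scale in 114, and of the 97 lower genes in 68. In tdT1 these were 93 of 128 and 65 of 96. Where the higher of the WT and TNF-Tg levels would have given at least 10 UMIs at the depth of the tdT library, they were 99 of 115 and 62 of 86 in tdT2, and 59 of 65 and 29 of 44 in tdT1. The same shares over all tested genes were not computed. H2-Aa, Cd74, Selenop, Tsc22d3, Pkm and Lgals1 lay on the WT side in both tdT libraries. Apoe and Klf9 lay nearer to WT in tdT1 and nearer to TNF-Tg in tdT2. Ccl8, Fkbp5 (4 UMIs), Cxcl13, Hist1h2bc (13 UMIs) and Jdp2 (5 UMIs), a partner of AP-1, lay nearer to TNF-Tg in tdT2 too. At such counts, and at the 3 UMIs of Klf9 in tdT2, the side is uncertain. The plot of levels in 4 libraries shows genes on the WT side and genes on the TNF-Tg side.

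**Figure D4:**
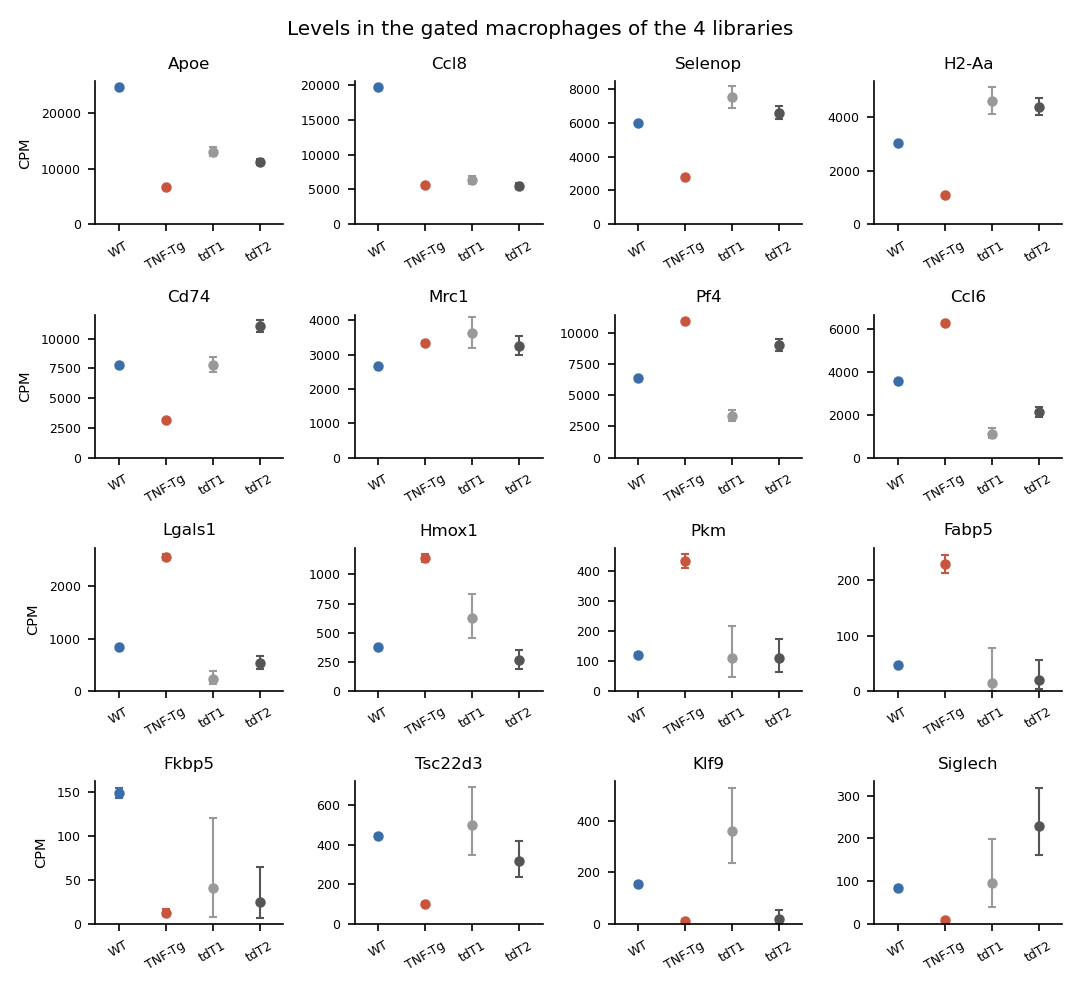
Levels of 16 genes in the gated macrophages of WT, TNF-Tg, tdT1 and tdT2 (x axis), with a panel for each gene and CPM on a linear y axis from 0, and with exact Poisson intervals that cover counting error only and 1 point per library. H2-Aa is lowest in TNF-Tg (1082 CPM) while both tdT libraries are above WT, whereas Ccl8 is highest in WT (19665 CPM).

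The level of Apoe was set against that of other genes from cell to cell. At 5000 UMIs per cell, the Spearman correlation of Apoe with the summed C1q chains was 0.81 in TNF-Tg (235 cells) and 0.54 in WT (1212 cells), and with the main MHC class II genes 0.66 and 0.16. With Selenop it was 0.61 in TNF-Tg and −0.20 in WT, and with Mrc1 −0.46 and −0.24. Over 1293 genes, those that went most with Apoe in TNF-Tg were Itm2b (0.80, and 0.41 in WT), the protease inhibitor gene Cst3 (0.80 and 0.33), C1qc (0.76 and 0.31), C1qa (0.75 and 0.45) and Lyz2 (0.75 and 0.49). Those that went most against it were the protease Lgmn (−0.61 and −0.24), the clathrin adaptor Ap2m1 (−0.58 and −0.10), Actb (−0.57 and −0.26) and Pkm (−0.57 and 0.00). Hmox1 was at −0.48 in TNF-Tg and −0.09 in WT. Other genes varied apart from Apoe in TNF-Tg, with Ccl8 and Pf4 both at 0.02, Cd163 at −0.01 and Lyve1 at −0.03.

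**Figure D5:**
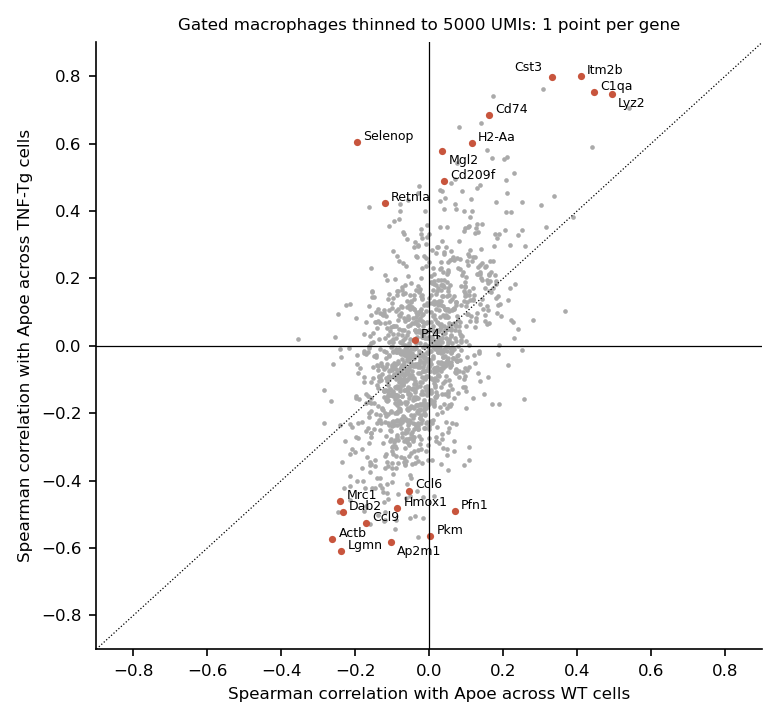
Spearman correlation of each of 1293 genes with Apoe over gated macrophages thinned to 5000 UMIs, in WT (x axis, 1212 cells) and TNF-Tg (y axis, 235 cells); both axes have no unit. The spread along the TNF-Tg axis is wider, from Itm2b and Cst3 at 0.80 to Lgmn at −0.61.

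The limit of 10 C1q UMIs bounds C1q on its low side, because cells with less C1q were not taken. The points share 1 library and 1 fixed depth, and the values describe these cells.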

How the data were processed

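The deposited files hold raw counts, 1 UMI count for each gene in each cell, that the authors obtained from 10x Genomics 3′ libraries with Cell Ranger. Only barcodes called as cells are included, and nothing was normalized. The submitters' processing notes name Cell Ranger 3.1.0, Seurat 4.0.3 and build mm10, and the matrix headers name Cell Ranger 3.1.0 for tdT1 and 6.0.1 for the other libraries. Per the study's methods, Seurat served the authors' later analysis of the filtered matrices. For tdT1 the notes and the header name the same Cell Ranger version. For tdT2, WT and TNF-Tg they differ, and the sources used here do not settle which version made those counts. The annotation is not given in these sources. tdT1 listed 31053 genes and the others 32287.

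Members were found by the 3 limits on counts, with scipy 1.17.1, numpy 2.4.6 and pandas 2.3.3 under Python 3.11.15. Comparison classes were set by UMI limits too. C1q-positive cells without Lyve1, Cd209f and Cd209d UMIs met the Dcn and C1q limits of the members. Inflammatory monocytes held at least 2 Ly6c2 and 1 Ccr2 UMIs. Neutrophils held at least 50 of S100a8 and S100a9 together, and 5 of Csf3r, Cxcr2 and Retnlg together. Stroma had Dcn at or over its limit and at least 10 collagen UMIs. All but the first class held fewer than 10 C1q UMIs, and monocytes and neutrophils had Dcn under its limit. Levels are UMIs summed over cells per 1000000 (CPM) with exact Poisson intervals, shares have exact Clopper-Pearson intervals, and ratios exact conditional binomial intervals, all at 95%. In ratios a count of 0 was set to a floor of 3 UMIs. In placing tdT levels beside WT and TNF-Tg, any count under 3 was set to that floor. Genes were compared from 50 CPM in the higher library and called at 2-fold where the interval of the ratio did not include 1. No p-values were computed between conditions, as each had 1 library of 3 pooled mice. Cells were thinned at random (seed 42) to 3000 UMIs for shares of cells with a UMI and for a scaling alternative, and to 5000 UMIs for correlations. Doublets predicted by Scrublet in scanpy 1.11.5 were kept and left out only in an alternative. Figures were drawn with matplotlib 3.10.9.

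Counts were simulated for the TNF-Tg over WT comparison of 32287 genes, of which 2927 were tested. They were Poisson draws from a pooled profile and held no difference between mice, libraries or cells. In them 100 of 100 genes simulated at 4-fold, 0 of 100 at 1.5-fold and 0 of 2750 unchanged genes were called. The intervals held the true ratio for 94.9% of genes. These values cover counting error only and do not measure how often libraries of the same condition would differ.

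The genes named include those that chose the cells and the 15 highest and 10 lowest in identity. The 15 had at least 50 CPM in the members of both libraries, the 10 at least 50 CPM in the comparison cells of both. Named too are the 15 highest and 15 lowest TNF-Tg over WT ratios among called genes that passed the 20% mark against free RNA. To these were added the 5 highest that missed it, and the most abundant and the called members of the gene lists. Not all of them are discussed. Tlr2, Tlr4 and other members not called are given for contrast, and the groups for glycolysis, proteasome, ribosomes, histones and the Cd209 family were chosen after their values were seen. The members and lists were chosen with earlier results of these data known. Alternatives covered the gate, the cells kept, scaling, the CPM minimum and the fold.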

Additional observations from a re-analysis of the deposited data

Results flagged for a closer look

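Some genes called in the gated macrophages differed at least 2-fold in the opposite direction in stromal cells of the same libraries. The difference between the classes was not tested. Gja1 had a log2 ratio of TNF-Tg over WT of 2.10 in the macrophages and −1.53 in stroma, where it stood at 253 and 87.8 CPM. Lyz2 had −1.23 in the macrophages and 1.30 in stroma, at 128 and 313 CPM there. The haemoglobin genes Hba-a1 and Hbb-bs had −4.85 and −4.95 in the macrophages against 4.83 and 5.30 in stroma, and S100a8 and S100a9 had 1.64 and 1.40 against −1.03 and −1.07. These 4 values in the macrophages rest on few cells. With the members rich in S100a8 and S100a9 or in haemoglobin left out, Hba-a1, Hbb-bs and S100a8 were at 0.38, 0.61 and 0.28.

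The tdT libraries, which served only as further levels beside the comparison of WT and TNF-Tg, held 11 cells in tdT1 and 39 in tdT2 that passed the macrophage limits. In tdT2 a UMI of the tdTomato reporter was present in 7 of these 39 cells (17.9%), with 7 UMIs in all, against 58 of 208 stromal cells (27.9%) at median depths of 3699 and 5991 UMIs. The WT and TNF-Tg mice carry no reporter, and none of their members held such a UMI.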

How the results depend on the processing

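The log2 ratio of the share of gated macrophages kept its direction and stayed within its interval in 9 of 10 alternatives, from other gates and cell filters, and became −0.30 with C1q-positive low-Dcn cells as the base. Of the 131 higher and 97 lower genes, 89 and 66 were also called with each cell thinned to 3000 UMIs. The counts moved by over 1.5 times to 83 higher genes after centring and 85 with equal weight per cell, and, with higher and lower genes in that order, to 310 and 241 at a minimum of 10 CPM, 52 and 35 at 200 CPM, 581 and 309 at 1.5-fold, and 20 and 26 at 3-fold, where the settings admit more or fewer genes by construction. Without members rich in S100a8 and S100a9 or in haemoglobin, an alternative chosen after seeing the data, Hba-a2, Hbb-bt, Hbb-bs and Hba-a1 reversed to 0.21, 0.24, 0.61 and 0.38, since 1 WT cell held most of these UMIs. Over the named genes 673 values moved by less than their counting interval, 181 moved more and 4 reversed. Cxcl13, Pla2g2d and Lyz1 fell short of 2-fold at −0.89, −0.53 and −0.72 with equal weight per cell and at −0.99, −0.84 and −0.68 after thinning, and the cause was not tested. No paired analysis was possible because WT and TNF-Tg had 1 library each and the replicate numbers of tdT1 and tdT2 pair no samples. The tdT1 and tdT2 levels rest on 72376 and 156837 UMIs, so that low genes have wide intervals there.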

Other observations

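A few relations between genes over the members, thinned to 5000 UMIs per cell (1212 WT and 235 TNF-Tg cells), concern genes other than Apoe. The Spearman correlations of Retnla with Selenop were 0.15 in WT and 0.58 in TNF-Tg, and Retnla and Mrc1, both named as genes of alternative activation, were at −0.03 and −0.47. Mmp9 and Selenop were at 0.08 and 0.45. The cells of each value share 1 library, so these are descriptions and the differences between the libraries were not tested.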
